A study of Rattus norvegicus with 24 samples.

Results

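Silver nanoparticles of 75 nm nominal size with a citrate coating were compared with no exposure in RBEC4 cells, a rat line that the labels describe as blood-brain barrier cells and the study's title as brain endothelial. The comparison rests on the 5 arrays titled for 75 nm citrate particles (citrate75) and the 4 arrays titled as controls, 9 of the 24 arrays of the series, and every array of either title was used. Citrate75 cells received 1 ppm of citrate-coated silver for 18 h, and the control label names no exposure. Both groups were RBEC4 cells at 95% confluence, per the series' design text. The remaining arrays, 5 each, held cells given the same dose for the same time of citrate-coated 10 nm particles (citrate10) or of polyvinylpyrrolidone-coated particles of 10 nm (PVP10) or 75 nm (PVP75). All groups came from a single cell line without the other cells of the vessel wall. Whether the numbered arrays of a group came from separate cultures is not stated in the labels. The p-values and intervals therefore reflect the spread among the arrays of a group, part or all of which may be technical.

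Silver particles are taken up by cells largely through endocytosis, and they release silver ions as they dissolve, in the medium or inside endosomes and lysosomes. Silver ions bind thiol groups. Cells are known to meet them with metallothioneins, small cysteine-rich proteins switched on by the zinc-sensing transcription factor MTF1, with the thiol and NADPH systems under the transcription factor NRF2, and with chaperones and the proteasome, which handle damaged protein. The surface coating sets how a particle is stabilised: citrate is a small charged molecule that adsorbs loosely, and polyvinylpyrrolidone is a polymer.

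The array's level here is a background-corrected, quantile-normalized log2 intensity, and a difference between groups is a log2 fold change from a linear model (limma) with the BeadChip as a further term. A probe counts as detected on an array when its deposited detection p-value is under 0.01, and it was tested when detected on at least 4 of the 24 arrays, which held for 2774 of 22523 probes (12.3%). Those probes carried 1942 named genes and 806 unnamed transcripts. A probe with an adjusted p under 0.05 after Benjamini-Hochberg adjustment over all 2774 is written as called. Detected probes numbered between 2269 and 2461 on the control arrays and between 2128 and 2576 on the citrate75 arrays, where replicate 2 was lowest. The means were 2384 ± 85.0 (SD, n = 4) and 2447 ± 183 (SD, n = 5), which an exact two-sided permutation test did not separate (difference 63.2, p = 0.548, smallest possible p = 0.00794). The difference was 143 without citrate75 replicate 2, 24.9 without control replicate 3, 31 without citrate75 replicate 5 and 34.5 without citrate75 replicate 3. Within chips the difference was 112 (exact permutation p = 0.325, smallest possible p = 0.025). Arrays correlated across the tested probes at r between 0.994 and 0.996 within control and between 0.990 and 0.996 within citrate75. Chip 1 held citrate75 replicates 1, 2 and 5 and control replicate 3, so every difference on that chip rests on 1 control array. Chip 2 held citrate75 replicates 3 and 4 and the other control arrays.

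The label of endothelial cells could be checked only in part. Of 35 endothelial identity genes with a named probe, 3 were measured, namely Thbd, the receptor that turns thrombin anticoagulant, Gata2, an endothelial and blood transcription factor, and Tie1, an endothelial receptor kinase. Of these 35 genes, 31 were not detected on any control or citrate75 array, among them Cdh5, the adhesion protein of endothelial junctions. Of 24 junction genes, Tjp1 alone was measured, the gene of the tight junction scaffold ZO-1, and Ocln was not detected on any array. The summed linear level of the 3 endothelial genes ran from 213 to 274 on control arrays and from 214 to 265 on citrate75 arrays. Tie1 was detected on only 1 of 4 control and 1 of 5 citrate75 arrays. Few markers of other cells were measured either. The single astrocyte marker measured of 10 was Slc1a2, and 4 of 16 neuron markers were measured (Rbfox3, Slc17a6, Nefm and Gad2), with summed levels of 171 to 184 in control and 153 to 186 in citrate75. Rbfox3 and Gad2 were each detected on 2 of 4 control and 1 of 5 citrate75 arrays, so these sums are partly background. No marker was measured of pericytes and smooth muscle (0 of 10), fibroblasts (0 of 11), microglia (0 of 12), oligodendrocytes (0 of 9) or choroid epithelium (0 of 8). In cultures measured in bulk, fewer cells of a kind and less RNA per cell cannot be told apart.

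The textbook reporters of metal exposure were mostly out of the array's reach. The metallothionein gene Mt1 was not detected on any of the 24 arrays (lowest detection p 0.173 among control and citrate75 arrays), and of its family only Mt3, the form known from neurons, was measured. The promoters of both are shown because they carry cores of the metal response element, the DNA element through which metals act on genes such as Mt1. A core alone does not show that metals act on a gene, and whether they act on Mt3 was not tested. They run from 250 bases before to 50 bases after the RefSeq start site in the rat assembly GRCr8 and are written 5′ to 3′ on the gene's strand. Capitals mark each core of the metal response element, TGCACNC or TGCGCNC on either strand. Mt1 lies at chr19:10832926-10833225 on the minus strand and Mt3 at chr19:10856031-10856330 on the same strand.
Mt1: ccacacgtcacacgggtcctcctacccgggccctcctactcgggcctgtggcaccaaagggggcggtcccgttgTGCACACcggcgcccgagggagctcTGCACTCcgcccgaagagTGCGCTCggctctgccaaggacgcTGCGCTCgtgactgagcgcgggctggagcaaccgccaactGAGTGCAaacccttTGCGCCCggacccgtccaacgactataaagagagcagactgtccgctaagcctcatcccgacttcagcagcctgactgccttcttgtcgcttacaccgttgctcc
Mt3: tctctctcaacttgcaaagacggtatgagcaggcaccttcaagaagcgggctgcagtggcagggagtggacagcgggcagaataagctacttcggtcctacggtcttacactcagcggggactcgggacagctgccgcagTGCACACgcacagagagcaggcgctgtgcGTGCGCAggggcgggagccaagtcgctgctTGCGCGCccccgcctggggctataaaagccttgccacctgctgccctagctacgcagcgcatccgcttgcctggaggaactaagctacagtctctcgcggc
The Mt1 promoter held 6 cores and that of Mt3 held 3. Of 33469 rat promoters of the same 300 bases, 24.2% held at least 1 core, 1.68% at least 3 and 0.0388% at least 6. Mt3 was at a log2 level of 4.79, 4.49, 4.47, 5.02 and 4.81 on citrate75 replicates 1 to 5 and of 4.62, 4.74, 4.65 and 4.68 on control replicates 1 to 4. The groups overlapped, with citrate75 arrays both above and below the controls, and Mt3 was detected on 1 of 5 citrate75 and 0 of 4 control arrays. The log2 fold change was 0.07 (SE 0.130, adjusted p = 0.929). A metallothionein response of Mt1 can be neither shown nor excluded with these probes.

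No transcript passed the test in citrate75. The genes with the smallest p-values were Tomm40, which encodes the pore through which proteins enter mitochondria and was higher in citrate75 by 0.68 on the log2 scale, Rbx1, the RING subunit of cullin ubiquitin ligases, at -0.50, and Akr1c12, an aldo-keto reductase, higher by 0.37. Limma called 0 of 2774 probes (0%), with 241 at a raw p under 0.05 (8.69%, where 5% would be 139), 132 of them higher and 109 lower. The smallest adjusted p was 0.154. Log2 fold changes ran from -0.67 to 0.68 with a median of -0.0017, and 2 probes were past 1.5-fold in their point estimate. With 1 of the 9 compared arrays left out, the count at a raw p under 0.05 ran from 139 to 296. The lowest count came without citrate75 replicate 1 and the highest without citrate75 replicate 2.

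Tomm40 was at 6.56, 5.92, 5.81, 5.84 and 6.21 on citrate75 replicates 1 to 5, against 5.39, 5.44, 5.20 and 5.42 on control replicates 1 to 4. The groups did not overlap, and the highest level was that of replicate 1. The log2 fold change was 0.68 (SE 0.145, 95% interval 0.39 to 0.98, adjusted p = 0.154). It was 1.02 on chip 1 and 0.41 on chip 2. Of all 2774 probes, 60 (2.16%) were higher on every citrate75 than on every control array and 44 (1.59%) were lower. The size of the Tomm40 difference followed the background step, at 0.29 without background correction and 0.96 with an offset of 1 in place of 16. The 2 settings in which Tomm40 was called were array weights, which let noisier arrays count less (0.71, adjusted p = 0.00353), and leaving out PVP75 replicate 3 (0.68, adjusted p = 0.0326), an array outside this comparison that shares its estimate of the spread. Over all settings its adjusted p ran from 0.00353 to 0.999.

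Rbx1 was at 6.92, 7.49, 7.83, 7.67 and 7.21 on the citrate75 arrays and at 8.01, 7.84, 8.02 and 7.95 on the control arrays. All citrate75 levels lay below all control levels, with replicate 3 just under the lowest control. The log2 fold change was -0.50 (SE 0.136, adjusted p = 0.406), made up of -0.82 on chip 1 and -0.19 on chip 2. Ddb1, the adaptor that ties substrate receptors to the cullin CUL4 and thus a partner of Rbx1 in the same ligases, was at 8.61, 8.54, 8.16, 8.25 and 8.47 in citrate75 and at 7.84, 8.20, 8.12 and 7.98 in control. Replicate 3 lay inside the control range and the other citrate75 arrays above it (0.34, SE 0.0990, adjusted p = 0.423). Akr1c12, whose family reduces carbonyls and steroids, was at 13.95, 13.88, 13.58, 13.88 and 13.88 in citrate75 and at 13.70, 13.56, 13.35 and 13.32 in control, again with replicate 3 inside the control range. Its log2 fold change was 0.37 (SE 0.102, adjusted p = 0.423), with 0.55 on chip 1 and 0.20 on chip 2. With array weights Rbx1 was called at -0.51 and Akr1c12 at 0.39 (adjusted p = 0.0373 for both), while over the other settings their adjusted p ran from 0.0924 to 0.999.

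**Figure D1:**
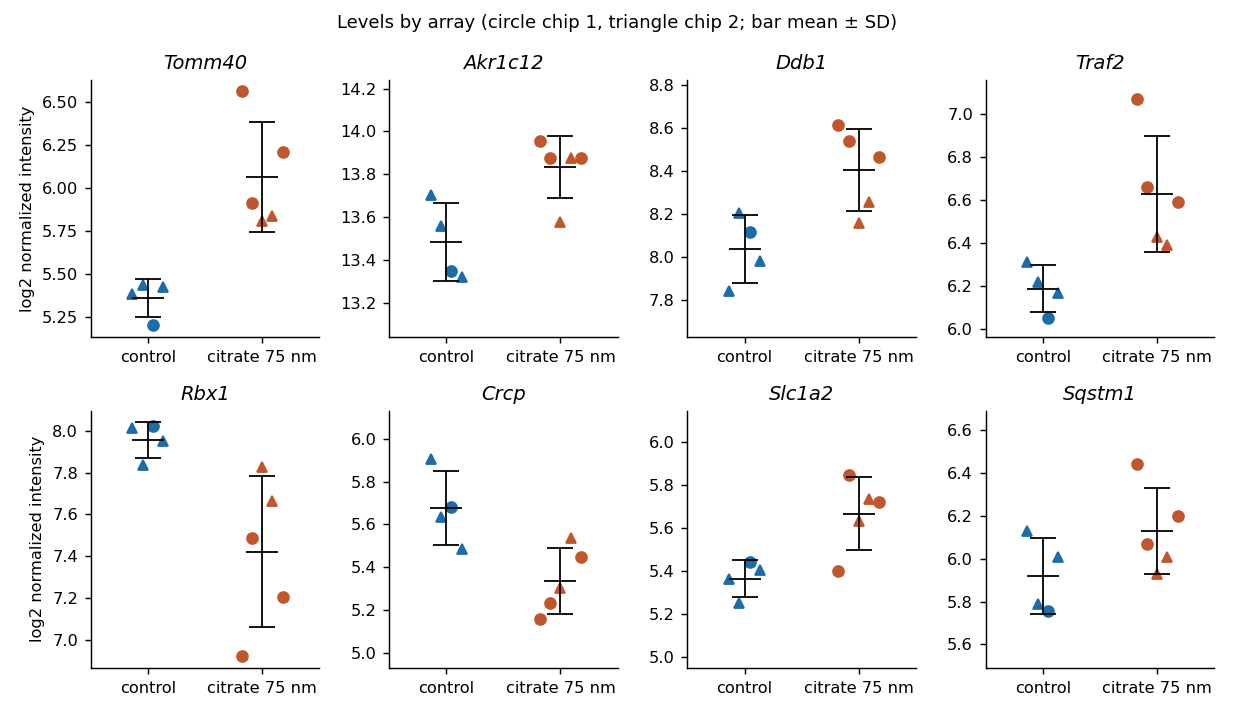
Normalized log2 intensity (y axis) of 8 genes on each control (blue) and citrate75 (orange) array, with circles for chip 1, triangles for chip 2 and a bar at the mean ± SD (n = 4 and 5). Tomm40, Traf2 and Rbx1 do not overlap between groups, while Akr1c12, Ddb1, Crcp, Slc1a2 and Sqstm1 do, and none was called.

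Further genes at the top of the list by p were higher in citrate75 by between 0.29 and 0.51. Traf2, an adaptor of tumour necrosis factor receptors, was at 7.07, 6.66, 6.43, 6.39 and 6.59 in citrate75 and at 6.31, 6.22, 6.05 and 6.17 in control (0.44, SE 0.133, adjusted p = 0.435; 0.72 on chip 1 and 0.18 on chip 2). Traf7, a RING protein of the same family, was at 0.29 and was detected on 5 of 5 citrate75 but only 1 of 4 control arrays, so its control level is close to background. Ddx6, an RNA helicase of processing bodies, differed by 0.31 (SE 0.0933) with 0.28 on chip 1 and 0.31 on chip 2, and Ppp1ca, a catalytic subunit of protein phosphatase 1, by 0.33 (SE 0.102) with 0.36 and 0.27. For both, all 5 citrate75 arrays lay above all controls. Vps26c, a subunit of the endosomal retriever complex, behaved likewise at 0.37 (0.35 and 0.36 on the chips). Mfn1, which fuses mitochondrial outer membranes, was at 0.34 with 4 of 5 arrays above all controls. Smc1a, a cohesin subunit, was at 0.51 and the nucleolar protein gene Nol12 at 0.45, both with a wide spread (SE 0.165 and 0.150). Their adjusted p lay between 0.423 and 0.457.

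Besides Rbx1, the named genes of smallest p on the lower side lay between -0.36 and -0.23. Ms4a8, a membrane-spanning protein gene, was at -0.29 with 5 of 5 citrate75 arrays below all controls (-0.39 on chip 1 and -0.19 on chip 2, adjusted p = 0.435). Crcp, which encodes a subunit of RNA polymerase III, was at 5.16, 5.23, 5.31, 5.54 and 5.45 in citrate75 and at 5.90, 5.63, 5.68 and 5.49 in control. Replicate 4 overlapped the control range, and the log2 fold change was -0.32 (SE 0.110, adjusted p = 0.481). Umps, which completes the synthesis of uridine monophosphate, was at -0.33 and Alg11, a mannosyltransferase of N-glycan assembly, at -0.36, each with 5 of 5 arrays below all controls. Adh1c (-0.27), an alcohol dehydrogenase, S100a1 (-0.28), a calcium-binding protein gene, Cdk2ap1 (-0.23), an inhibitor of the cell cycle kinase CDK2, Lig4 (-0.23), the ligase of DNA end joining, and Efcab11 (-0.29) completed the set, with adjusted p between 0.484 and 0.528.

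By the spread among these arrays, the data were precise enough to set limits on what was not seen. If that spread is technical, the limits do not cover variation between cultures. The 95% interval of a probe reached a median of 0.231 to either side of its log2 fold change, a factor of 1.17, and between 0.178 and 0.315 from the 5th to the 95th percentile of probes. For 2684 probes (96.8%) the whole interval lay within 1.5-fold of no change in either direction and for 2769 (99.8%) within 2-fold. A test of equivalence with Benjamini-Hochberg adjustment over all probes placed 2724 (98.2%) within 1.5-fold and 2770 within 2-fold. With intervals that hold for all probes at once (Bonferroni), 2643 (95.3%) lay within 2-fold but 648 (23.4%) within 1.5-fold. Among the 1964 probes detected on all 9 arrays, 1895 (96.5%) had an interval within 1.5-fold. A lone probe of typical standard error, 0.113, would have needed a log2 fold change of 0.58 to be called.

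**Figure D2:**
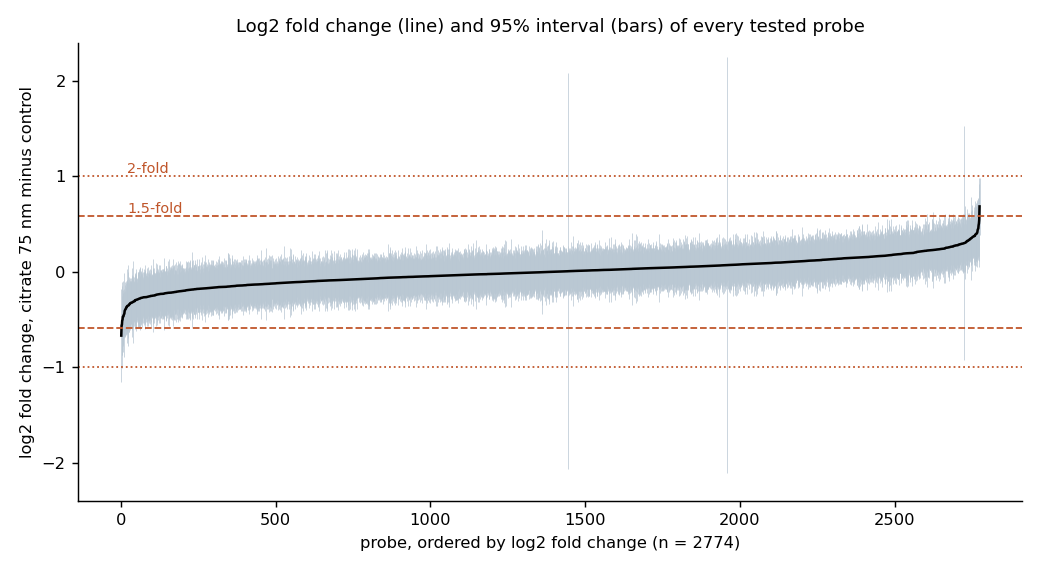
Log2 fold change of citrate75 minus control (y axis, black line) and its 95% interval (grey bars) for the 2774 tested probes, ordered by log2 fold change (x axis), with dashed lines at 1.5-fold and dotted lines at 2-fold. All point estimates lie between -0.67 and 0.68, and 5 intervals cross a 2-fold line.

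These limits refer to folds on the background-corrected scale with an offset of 16, which pulls the folds of dim probes toward 0. With an offset of 1, chosen after the data were seen, the share of probes with an interval within 1.5-fold was 36.5% among the 925 dimmest, 78% among the 924 of middle level and 94.7% among the 925 brightest, instead of 97.7%, 95.6% and 97%. For 2-fold the shares with an offset of 1 were 93.4%, 98.9% and 99.4%. A change of 2-fold or more was therefore excluded at nearly all tested probes under either offset, while a limit of 1.5-fold held under both only for the bright ones, those above a log2 level of 7.34.

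**Figure D3:**
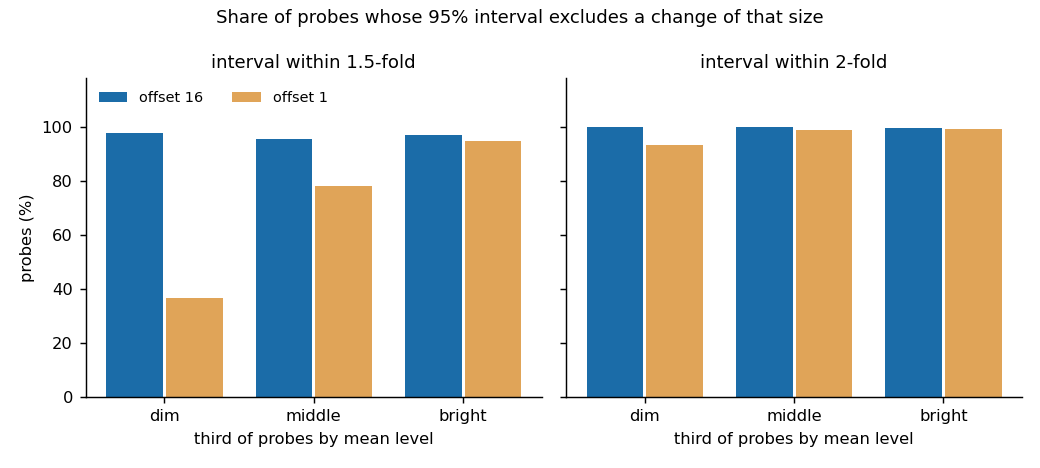
Share of probes (y axis, percent) whose 95% interval lies within 1.5-fold (left) or 2-fold (right) of no change, in 3 equal classes of mean level (x axis), with offset 16 in blue and offset 1 in orange. The orange bar of the dim class drops to 36.5% for 1.5-fold and stays at 93.4% for 2-fold.

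How many probes left a 2-fold change open depended on the setting. With an offset of 1, 2697 of 2774 intervals lay within 2-fold. With the offset of 16, 2643 lay within it by intervals that hold for all probes at once. By the interval of each probe alone and the offset of 16, a 2-fold change was not excluded at 5 probes. Ephx1, the microsomal epoxide hydrolase, had an interval of -0.93 to 1.52 and Rps14, a ribosomal protein gene, one of -2.11 to 2.25. Neither width came from the arrays compared. On PVP75 replicate 3 the Ephx1 probe was at 4.21, while the other PVP75 arrays reached up to 9.52, and the Rps14 probe at 4.67 against 13.88 to 14.03, which widened the shared estimate of the spread. In a fit of the 9 arrays alone the intervals were -0.06 to 0.49 for Ephx1 and -0.28 to 0.11 for Rps14. The other 3 probes have no gene name here. Of these, ILMN_1351773 was likewise at 4.68 on PVP75 replicate 3, against 13.38 to 13.55 on the other PVP75 arrays. Its interval was -2.07 to 2.08, and -0.34 to 0.05 in the fit of the 9 arrays alone. ILMN_1374580 spread over citrate75 with an SD of 0.66 and had an interval of -1.16 to -0.18. Among the 5 probes, ILMN_1374580 alone kept an interval past 2-fold in the fit of 9 arrays.

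By function, 0 members of any list were called, and each of the 19 functional lists with at least 5 measured genes had point estimates on both sides of 0. For comparison, 49.4% of all tested probes had a log2 fold change above 0 and 8.69% a raw p under 0.05. The metal handling list had 8 of 30 genes measured, 4 above 0 and 4 below, with a median of -0.02 and 1 raw p under 0.05. That gene was Ccs, the copper chaperone of superoxide dismutase, at 9.53, 9.59, 9.28, 9.39 and 9.63 in citrate75 and at 9.38, 9.26, 9.20 and 9.28 in control (0.22, SE 0.0914, adjusted p = 0.537; 0.39 on chip 1 and 0.03 on chip 2). The zinc exporter gene Slc30a2 was at -0.20, the copper chaperone of cytochrome oxidase Cox17 at -0.21 and the zinc importer gene Slc39a10 at -0.19. All 8 intervals stayed within 1.5-fold with the offset of 16, the widest limits being 1.33-fold upward and 1.36-fold downward. Mt3, among the 8, was detected on 0 of 4 control and 1 of 5 citrate75 arrays. Limits given here and below are those of the offset of 16. With an offset of 1, 36.5% of the probes of the dim class had an interval within 1.5-fold, so limits for dim genes depend on the offset.

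Of 33 NRF2 target genes 9 were measured, 5 above and 4 below 0, with a median of 0.01 and no raw p under 0.05. The autophagy receptor gene Sqstm1 was at 0.16, the conjugating enzyme gene Ugt1a6 at -0.14, the glutathione transferase gene Gstp1 at -0.04 and the malic enzyme gene Me1 at 0.01. Hmox1, Nqo1, Gclm, Gclc, Txnrd1, Srxn1 and Slc7a11, the genes most often used to read this pathway, were not detected on any array. The carbonyl-reducing enzymes numbered 5, with Akr1c12 in the lead and Cbr1 next at 0.11. Among 8 thiol redox genes, Prdx2, a peroxiredoxin, was at 0.16, thioredoxin Txn1 at -0.14 and superoxide dismutase Sod1 at -0.16, with 4 above and 4 below 0 and every interval within 1.5-fold.

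No protein quality gene was called. Of 9 heat shock genes 3 were above and 6 below 0, with the small heat shock protein gene Hspb1 at 0.18 (SE 0.127) and the chaperone gene Hspa2 at -0.19, and all 9 intervals lay within 1.5-fold. Of these, Hspb8 was detected on 0 of 4 control and 0 of 5 citrate75 arrays, so its interval describes background signal. The 6 genes of the endoplasmic reticulum stress list had a median of -0.02, with Canx, a chaperone of glycoproteins, at -0.22 and Herpud1 at -0.07. Of 19 proteasome subunits 8 were above and 11 below 0, with a median of -0.03. The regulatory particle subunit gene Psmd3 at -0.22 had the smallest p-value of them in the limma fit (adjusted p = 0.572). The catalytic subunit gene Psmb2 was at 0.18. No proteasome interval went past 1.31-fold upward or 1.35-fold downward. Among them, Psmc3 was detected on 0 of 4 control and 1 of 5 citrate75 arrays. Psmb1, Psmb5 and Psma4 were each detected on 1 of 4 and 1 of 5. The intervals of these subunits describe mostly background signal. Of 20 cullin and ubiquitin genes 9 were above and 11 below 0, and Rbx1 and Ddb1 had raw p-values under 0.05 in opposite directions.

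Genes of endocytosis and endosomal sorting had more point estimates above than below 0, with none called. Of 28 endocytosis genes 20 were above and 8 below 0, with a median of 0.10 against -0.0017 for all probes. Cavin1, a coat protein of caveolae, was at 6.53, 6.40, 6.35, 6.42 and 6.35 in citrate75 and at 6.16, 6.01, 6.19 and 6.19 in control, without overlap (0.31, SE 0.119, adjusted p = 0.528). Arf6, a GTPase of membrane recycling, was at 0.28 and Snx1, a sorting nexin of the endosome, at 0.23, whereas Vps28, a subunit of the ESCRT-I sorting complex, was at -0.23. These 4 genes had raw p-values under 0.05. The caveolar gene Cav1 was at 0.08, and every interval of the list lay within 1.5-fold. Snx5 was detected on 0 of 4 control and 2 of 5 citrate75 arrays and Eps15l1 on 1 of 4 and 2 of 5. Their intervals are partly those of background signal. In the lysosome and autophagy list 8 of 12 were above 0 with a median of 0.03. Gabarap, which attaches to the membranes of autophagosomes, was at 0.39 (SE 0.161, adjusted p = 0.537) and the proton pump subunit gene Atp6v1b2 at 0.28 (SE 0.142, adjusted p = 0.605).

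**Figure D4:**
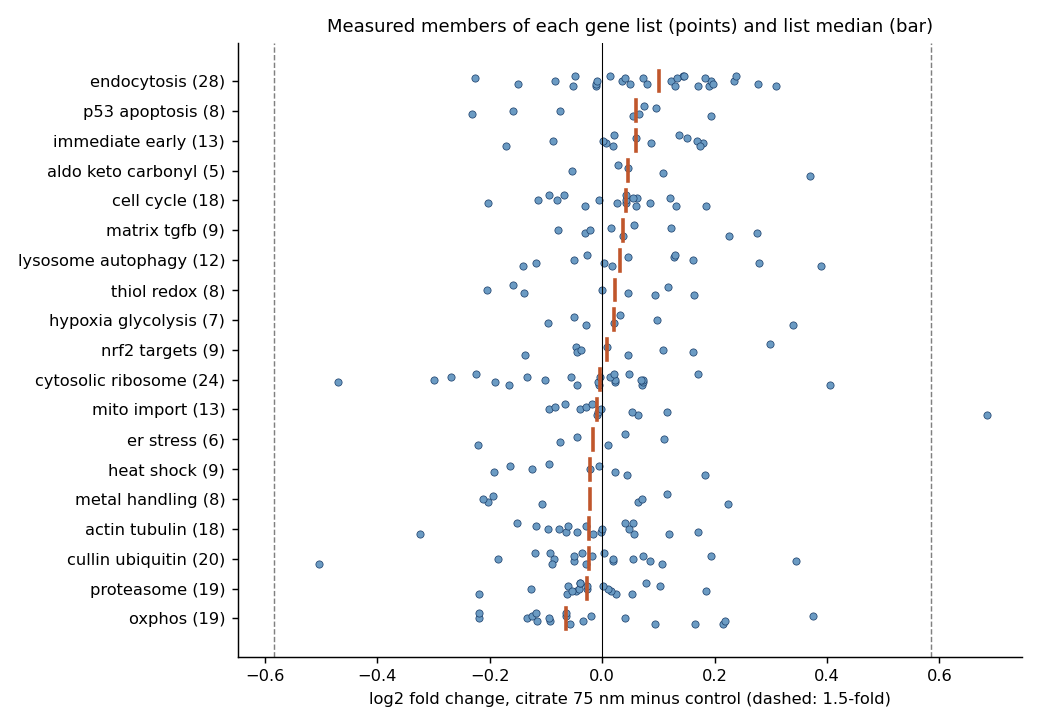
Log2 fold change of citrate75 minus control (x axis) for each measured gene (points) of 19 functional lists (y axis, number measured in brackets), with an orange bar at the list's median and dashed lines at 1.5-fold. Medians lie between -0.06 (oxidative phosphorylation) and 0.10 (endocytosis), and Tomm40 in the mitochondrial import list is the 1 point past a dashed line.

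Genes of the early and inflammatory response were measured unevenly. Of 13 immediate early genes 11 were above 0, with a median of 0.06 and no raw p under 0.05, Phlda1 at 0.18 and Btg1, an antiproliferative gene, at -0.17. Of 43 inflammation genes 4 were measured, and Il1b, Il6, Ccl2, Icam1, Vcam1 and Ptgs2 were not detected on any array. Among 7 hypoxia and glycolysis genes the glycolytic enzyme gene Aldoa was at 0.34 (SE 0.112, adjusted p = 0.457), with all 5 citrate75 arrays above all controls and replicate 1 the highest at 11.35. The cell cycle list held 18 genes, 11 above and 7 below 0, with a median of 0.04, the helicase subunit gene Mcm5 at 0.18 and the clamp loader gene Rfc5 at -0.20. Among 8 apoptosis genes the survival gene Bcl2l1 was at 0.19 (adjusted p = 0.573), above all controls on 5 of 5 arrays, and Aifm1, a mitochondrial flavoprotein, at -0.23.

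No mitochondrial gene was called. Of 13 import genes 4 were above and 9 below 0, and the receptors that work beside the pore, Tomm20 and Tomm70, were at -0.08 and 0.06, with the inner membrane translocase Timm23 at -0.02. Tomm20 was detected on 0 of 4 control and 0 of 5 citrate75 arrays, so its value compares background signal. Of 19 oxidative phosphorylation genes 6 were above and 13 below 0, with a median of -0.06. Ndufs8 of complex I and Uqcrc1 of complex III were both at 0.22 and Cox7a2l, which links respiratory complexes, at 0.38 (detected on 1 of 4 control and 4 of 5 citrate75 arrays, so its control level is close to background), while Cox7b of complex IV was at -0.22. These 4 had raw p-values under 0.05, which is 21.1% of the list. The 24 cytosolic ribosomal protein genes had a median of -0.005, with 11 above and 13 below 0. Within them Rpl24 was at 0.41 (detected on 3 of 4 control and 5 of 5 citrate75 arrays) and Rps6 at -0.47 (SE 0.182), Rpl17 at -0.30 and Rplp1 at -0.27, all with raw p-values under 0.05. Among 18 actin and tubulin genes Arpc2, an actin-branching subunit, was at -0.32 (SE 0.133, adjusted p = 0.537), and 6 were above and 12 below 0. Among 9 matrix genes the growth factor gene Tgfb1 was at 0.22 and the integrin gene Itgb1 at 0.28.

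A panel of 36 genes of metal and oxidative stress, inflammation and the barrier was also read whatever the result. Of these 31 had a named probe and 7 were measured, all 7 with a point estimate above 0 and 0 called. Tjp1 was at 0.03 (SE 0.0970), and its interval set limits of 1.17-fold upward and 1.13-fold downward. Hspb1 had limits of 1.36-fold and 1.05-fold, Cav1 of 1.21-fold and 1.09-fold and the endoplasmic reticulum chaperone gene Hspa5 of 1.22-fold and 1.15-fold. The widest was Slc1a2 with 1.61-fold upward. Of the panel 22 genes were not detected on any of the 24 arrays, Tnf was detected on 1 control array and Cldn5 on 1 array outside this comparison.

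The genes that changed most in PVP10 were followed in citrate75 because they are the series' strongest responders. They were chosen by their PVP10 values, and all comparisons with control share the same 4 control arrays. Limma called 1156 probes (41.7%) in PVP10, 152 (5.48%) in PVP75 and 1 (0.036%) in citrate10. Slc1a2, a glutamate transporter gene, was at 5.40, 5.85, 5.63, 5.74 and 5.72 in citrate75 and at 5.36, 5.25, 5.44 and 5.41 in control. Replicate 1 lay inside the control range and the other citrate75 arrays above it. The log2 fold change was 0.30 (SE 0.187, 95% interval -0.08 to 0.69, adjusted p = 0.714), beside 1.70 in citrate10, 3.45 in PVP75 and 4.19 in PVP10. Sqstm1 was at 6.44, 6.07, 5.93, 6.01 and 6.20 in citrate75 and at 6.13, 5.79, 5.75 and 6.01 in control, with overlap (0.16, SE 0.120, adjusted p = 0.766), beside 0.08 in citrate10, 1.57 in PVP75 and 3.03 in PVP10. It was 0.48 on chip 1 and -0.01 on chip 2.

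The other 8 responders stayed within 0.2 of control in citrate75. The peptidase gene Lap3 was at -0.08 (1.95 in PVP10), the mTORC1 inhibitor gene Ddit4 at 0.03 (1.63) and the elongation factor partner gene Eaf1 at -0.06 (1.63). Of the genes that fell in PVP10, the transcription factor gene Nfix was at -0.00 (-2.33), the spindle gene Fam83d at 0.06 (-2.15), Slc39a10 at -0.19 (-2.11), the homeobox gene Prrx1 at 0.02 (-1.96) and the membrane protein gene Tmem158 at 0.00 (-1.77). The widest limits among these 8 were 1.26-fold upward and 1.33-fold downward.

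**Figure D5:**
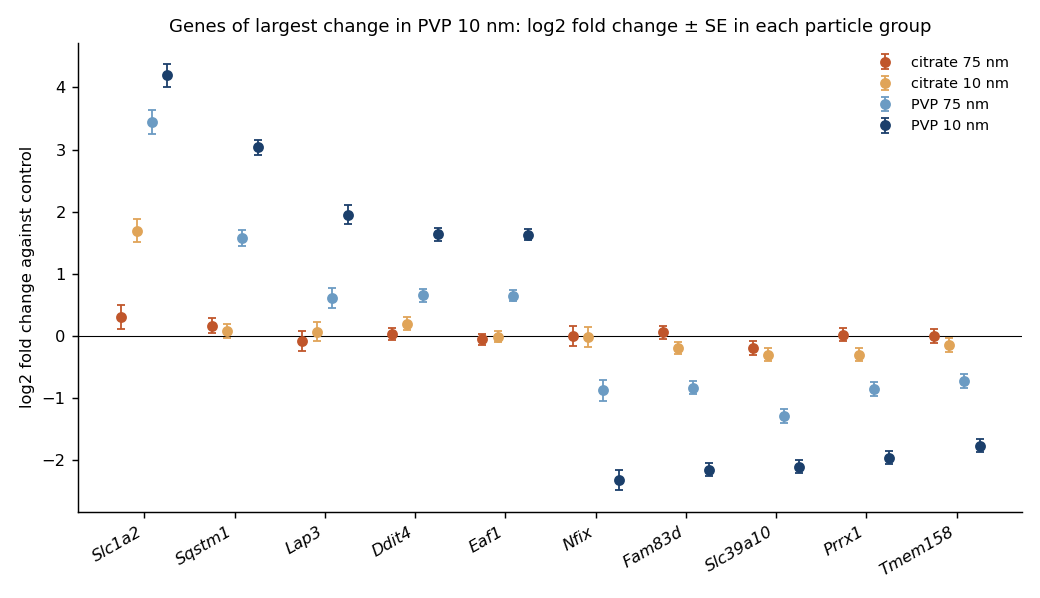
Log2 fold change against control ± SE (y axis) in citrate75 (orange), citrate10 (light orange), PVP75 (light blue) and PVP10 (dark blue) for the 5 named genes that rose most and the 5 that fell most in PVP10 (x axis). Citrate75 lies between -0.19 and 0.30 for all 10 genes.

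Direct comparisons between particles gave the size of the gap. Control arrays enter them only through the chip term and the shared estimate of the spread. At 75 nm, the log2 difference of citrate75 minus PVP75 was -3.14 for Slc1a2 (SE 0.174, adjusted p = 1.08e-13), -1.41 for Sqstm1 (SE 0.111, adjusted p = 2.79e-10) and 1.09 for Slc39a10 (SE 0.100, adjusted p = 6.71e-09). All 10 responders differed between these particles of equal nominal size and dose, and 392 of 2774 probes (14.1%) were called, 208 higher and 184 lower in citrate75. Between the citrate particles, 4 probes (0.144%) were called. Slc1a2 was lower in citrate75, with a log2 difference from citrate10 of -1.39 (SE 0.174, adjusted p = 2.50e-05), and its levels did not overlap, at most 5.85 in citrate75 and at least 6.71 in citrate10. Tbc1d20, a GTPase-activating protein gene for Rab1, was higher in citrate75 by 0.44 (SE 0.0923, adjusted p = 0.0364), and ILMN_1351535 and another unnamed probe were lower. That Slc1a2 differed between the citrate sizes while so few other probes did does not show that the particles otherwise acted alike. The typical interval of this contrast reached 0.214 to either side.

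Detection itself also differed for a few dim probes. On 15 of the 2774 tested probes no control array and at least 4 of 5 citrate75 arrays were above the detection threshold. On 2 unnamed probes all 4 control arrays and 1 of 5 citrate75 arrays were above it. The probes were picked by their detection in these groups, which fixes their direction, so it is not a result. Either pattern meets the filter of 4 arrays by itself, so the p-values of these probes are no support for a difference. Fzr1, an activator of the anaphase-promoting ubiquitin ligase, was at 4.64 ± 0.0408 in control (SD, n = 4) and 5.08 ± 0.292 in citrate75 (SD, n = 5). Its citrate75 mean lay 1.11-fold above the detection floor of the control arrays (adjusted p of the group difference = 0.457). Anapc7, a subunit of that ligase, was at 4.67 ± 0.127 and 5.02 ± 0.0901, with its citrate75 mean 1.06-fold above the floor (adjusted p = 0.528). For the nuclear zinc finger gene Irf2bpl that mean was 1.09-fold above the floor. Its log2 fold change was 0.25, with an interval of -0.01 to 0.52 (adjusted p = 0.607), so no change was not excluded. The floor is the lowest signal of a detected probe on each control array. The folds above it carry no sampling error and are not lower limits of a difference. For Dixdc1, a regulator of Wnt signalling, the citrate75 mean was not above the floor. These 4 genes were chosen after their values were seen.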

How the data were processed

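The members were set by array title. The genes, lists, thresholds and tests were chosen with earlier results of these data known. Per the file headers, the deposited signal table gives the linear bead intensity of each probe on each array, neither normalized nor background-subtracted as read from the values. Beside it stands a deposited detection p-value, per the file headers. A further deposited table of intensity values, quantile normalized by the authors as read from identical quantiles, was an alternative. The submitters' processing notes name GenomeStudio 2011.1, and other steps by the authors were not given in the sources used here. Columns were tied to samples by the chip and position that the labels name, 0 sample columns were unused, and 0 pairs of arrays were identical.

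Intensities were corrected by normexp with negative controls inferred from detection p-values (limma 3.58.1, R 4.3.3, offset 16), quantile normalized over all 24 arrays and taken to log2. Probes detected (p under 0.01) on at least 4 arrays were fitted with lmFit and eBayes, with 5 groups and 2 BeadChips as fixed terms, and adjusted by Benjamini-Hochberg over 2774 probes. All 24 arrays share the estimate of the spread. Group means are not adjusted for the chip. Intervals are moderated 95% intervals. Their depth is that of the arrays, whose number limits the precision. The fit was tested on simulated data. Gene names are those of the platform annotation: 13793 probes with 1 symbol, 0 with several and 8730 with none, with 13752 identifiers found in RefSeq GRCr8, which changed 0 symbols. Of 22 genes with several tested probes, represented by the brightest, 6 had probes that differed in sign, by at most 0.29 (Eef1a1). Named were the 10 genes of smallest p in each direction if detected on all arrays of the higher group, the 5 largest changes, up to 2 members by p of each list with at least 5 measured genes, the panel, the 5 largest rises and falls in PVP10 and genes called under an alternative. Further list members were named after their values were seen. Promoters are RefSeq's, and motifs were matched on both strands. The alternatives were other background, normalization and filter settings, other treatments of the chip, array weights, each chip alone, the 9 arrays alone, a replicate block and each replicate left out.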

Additional observations from a re-analysis of the deposited data

Results flagged for a closer look

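On 14 of 138 groups of arrays examined, 1 array stood apart from the rest of its group by Dixon's test at the 95% level, where about 6.9 would by chance alone. In citrate75 these were Akr1c12 with its lowest level at 13.58 on replicate 3, Aldoa with its highest at 11.35 on replicate 1, Lig4 at 5.45 and Psmd3 at 10.06, both highest on replicate 2, Atp6v1b2 at 7.50, lowest on replicate 2, Arpc2 at 7.57, highest on replicate 3, and Prrx1 at 9.33, lowest on replicate 3. Replicate 2 also had the fewest detected probes, 2128. In control, replicate 4 was lowest for Ppp1ca at 11.05, Rpl24 at 4.65 and Efcab11 at 5.19 and highest for Slc39a10 at 7.56 and Hspb1 at 10.16, and replicate 2 was highest for Ddx6 at 9.91.

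Effects that differed between particles by the direct contrast were the following. Citrate75 minus citrate10 was -1.39 for Slc1a2. Citrate75 minus PVP75 was -3.14 for Slc1a2, -1.41 for Sqstm1, -0.71 for Eaf1, -0.69 for Lap3 and -0.62 for Ddit4. It was 1.09 for Slc39a10, 0.89 for Fam83d, 0.87 for Prrx1, 0.87 for Nfix and 0.73 for Tmem158. Outside the tested probes, 2 were detected on 3 of 5 citrate75 and 0 of 4 control arrays, Fbxl8 among them, and 0 showed the reverse (3 of 4 control and 0 of 5 citrate75 arrays).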

How the results depend on the processing

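The count of 0 called probes in citrate75 held under every setting tried except array weights, with 13 (4 higher, 9 lower, 5 of them named: Tomm40, Rbx1, Akr1c12, Dixdc1 and Fzr1), and leaving out PVP75 replicate 3, with 1. Dixdc1 and Fzr1 met the detection filter only with their citrate75 arrays counted. Settings added after seeing the data were leaving out PVP75 replicate 3, the offset of 1, normalization of 14 arrays without the PVP groups and normalization of the 9 arrays alone. The number of probes with an interval within 1.5-fold was 22420 of 22523 without the detection filter, where most probes hold background, and 1408 on chip 1 alone. Within 2-fold it was 22517 without the filter. Leaving out each replicate gave 2571 to 2698 and 2765 to 2771 probes. The median reach of the interval was 0.122 without background correction, 0.156 with an offset of 50, 0.123 with the authors' normalized values, 0.101 without the filter, 0.192 with array weights, 0.438 on chip 1 alone, 0.268 on chip 2 alone, 0.323 with an offset of 1 and 0.224 to 0.266 without each replicate, PVP75 replicate 3 included. For citrate75 against citrate10, 4 called probes became 9 without background correction, with the authors' values and with 14 arrays, 8 with an offset of 50, without the chip term and with the chip as a random block, 7 without PVP75 replicate 3, 72 with array weights, and 1 without the filter, on either chip alone and with an offset of 1. Leaving out each replicate gave 1 to 17, with 17 without citrate75 replicate 3, 1 without citrate75 replicate 1 or 5 and 2 without control replicate 3. The cause was not tested. This contrast was not run on the 9 arrays, which hold no citrate10 array.

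Same-numbered arrays showed little shared deviation, at r between -0.0691 and 0.0957. This cannot tell whether the replicate numbers mark shared cultures, which the labels do not state. With the replicate block and the chip term 0 probes were called (smallest adjusted p = 0.242, 200 at a raw p under 0.05), 2705 lay within 1.5-fold, the median reach was 0.233 and 4 probes differed from citrate10. Of the named genes' settings 1769 kept direction and side of the threshold, 4 passed it, 50 of genes not called moved in sign, and 0 reversed a call. Precision is limited by 4 control arrays, 1 of them on chip 1, and by the 12.3% of probes detected.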

Other observations

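Leaving out control replicate 3, the control array of chip 1, raised the smallest adjusted p from 0.154 to 0.752, and without the chip term it was 0.0512. The 8 unnamed probes called with array weights were all lower in citrate75. The weights ranged from 0.53 (citrate75 replicate 2) to 2.19 (citrate75 replicate 5) among the 9 arrays compared. Nfkb1, a subunit of NF-kappa B, was at 0.39 and was the 1 of 4 measured inflammation genes with a raw p under 0.05 in the limma fit. The sterol and fatty acid genes Elovl5 (0.19), Srebf2 (0.09), Sqle (0.02) and Pparg (0.02) all had point estimates above 0, and none had a raw p under 0.05. All 3 measured endothelial genes were within 1.5-fold with the offset of 16. Thbd was at 0.25 (detected on 2 of 4 control and 5 of 5 citrate75 arrays), Gata2 at -0.03 and Tie1 at 0.01 (detected on 1 of 4 and 1 of 5).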
